A study of Mus musculus with 4 samples.

Results

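Slc5a8, Slc16a1, Bdh1, Acat1, Oxct1 and Ffar2 encode proteins with which colonocytes, the absorptive cells of the colon surface, take up, sense and burn butyrate and ketone bodies. These 6 genes were chosen by name, for what they are known to do, out of 25796 genes listed in the deposited expression table. Where a gene had several RefSeq transcripts, the transcript with the highest mean over the 4 libraries stood for it. All 6 were listed, and all 6 passed the filter on low values.

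The RNA came from mouse colon epithelial cells, released from opened and washed colon by shaking in EDTA, a chelator that loosens cell contacts, with DTT and a ROCK inhibitor that limits death of detached cells. The libraries were the input fractions of an m6A immunoprecipitation, so they measured RNA before an antibody against N6-methyladenosine pulled down the methylated part. There were 2 libraries of genotype WT (WT 1 and WT 2) and 2 labelled Ythdf1 KO (KO 1 and KO 2), and no treatment was named for either group. Ythdf1 encodes a cytoplasmic protein that binds m6A in mRNA, and the comparison asked how RNA levels differed between the labelled genotypes. Strain, age, the knockout allele, the cells that lack the gene and the number of mice behind each group were not given in the sources used here. The p-values are therefore set against the spread between these libraries alone, and that spread may be technical.

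Colonocytes draw much of their energy from butyrate, a short-chain fatty acid that gut bacteria make from fibre. Slc5a8 (SMCT1, sodium-coupled) and Slc16a1 (MCT1, proton-coupled) carry butyrate, lactate and ketone bodies across the plasma membrane, and Ffar2 is a G protein-coupled receptor for short-chain fatty acids. Inside mitochondria Bdh1 oxidises the ketone body beta-hydroxybutyrate to acetoacetate, Oxct1 (SCOT) loads acetoacetate with coenzyme A from succinyl-CoA, and Acat1 splits the acetoacetyl-CoA into acetyl-CoA, which enters the citric acid cycle. The same thiolase reaction ends the oxidation of butyrate.

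Bdh1 and Ffar2 were listed with several starts whose transcripts gave different values. RefSeq (GRCm38.p6) held the 250 bases upstream of 9 starts for 5 of the 6 genes: Slc5a8, Slc16a1, Bdh1, Oxct1 and Ffar2. The sequences below are shown for Oxct1, whose WT and KO libraries did not overlap, for both starts of Bdh1, and for 2 starts of Ffar2 whose transcripts gave opposite directions. Each is written 5′ to 3′ on the gene's strand and ends just before the transcript start, and capitals mark CG dinucleotides. They lie at chr15:4026178-4026427 (plus strand) for Oxct1, at chr16:31422047-31422296 and chr16:31428503-31428752 (plus strand) for Bdh1 variants 1 and 2, and at chr7:30823776-30824025 and chr7:30821193-30821442 (minus strand) for Ffar2 variants 1 and 3.
Oxct1: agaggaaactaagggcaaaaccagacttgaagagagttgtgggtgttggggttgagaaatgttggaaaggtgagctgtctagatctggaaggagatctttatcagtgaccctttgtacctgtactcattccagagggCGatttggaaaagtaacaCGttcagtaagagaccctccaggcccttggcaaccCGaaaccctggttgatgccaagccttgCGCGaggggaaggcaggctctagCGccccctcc
Bdh1 variant 1: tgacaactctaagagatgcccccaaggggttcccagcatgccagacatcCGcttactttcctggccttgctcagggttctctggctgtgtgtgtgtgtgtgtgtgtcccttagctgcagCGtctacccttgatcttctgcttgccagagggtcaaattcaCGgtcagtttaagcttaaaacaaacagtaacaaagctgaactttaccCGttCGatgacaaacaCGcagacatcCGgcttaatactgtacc
Bdh1 variant 2: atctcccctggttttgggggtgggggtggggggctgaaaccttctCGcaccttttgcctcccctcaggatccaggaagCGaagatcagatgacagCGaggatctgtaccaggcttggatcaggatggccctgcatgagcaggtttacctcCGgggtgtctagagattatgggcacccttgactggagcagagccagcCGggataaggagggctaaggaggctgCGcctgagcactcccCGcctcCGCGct
Ffar2 variant 1: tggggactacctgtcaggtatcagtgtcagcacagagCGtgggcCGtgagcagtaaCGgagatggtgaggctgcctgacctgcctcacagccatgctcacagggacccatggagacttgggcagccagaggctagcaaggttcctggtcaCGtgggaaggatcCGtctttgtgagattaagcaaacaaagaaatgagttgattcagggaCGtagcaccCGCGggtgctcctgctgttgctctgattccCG
Ffar2 variant 3: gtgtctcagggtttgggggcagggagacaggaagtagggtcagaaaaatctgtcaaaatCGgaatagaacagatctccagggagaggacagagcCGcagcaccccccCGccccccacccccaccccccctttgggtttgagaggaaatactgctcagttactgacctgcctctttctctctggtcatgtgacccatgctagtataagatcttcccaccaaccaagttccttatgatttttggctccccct

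The Oxct1 window held 6 CG dinucleotides, the median of the 32851 RefSeq mouse promoter windows of this length. Bdh1 held 7 before variant 1 and 9 before variant 2. The window before Ffar2 variant 1 held 9, against 3 before each of variants 2, 3 and 4. Slc5a8, at chr10:88885742-88885991, held 17, and 23.5% of all windows held at least as many. Slc16a1, at chr3:104638414-104638663, held 37 with 76.4% G or C, and 2.2% of all windows held as many CG or more. The E-box CACGTG, the same on both strands, was present in the Slc16a1 window and in that of Ffar2 variant 1, as in 6.02% of all windows. TATAAA, searched on both strands, was present in none of the 9 windows and in 12.4% of all. These matches describe the letters of the windows and are no measure of binding.

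The deposited values are normalised read counts, that is, reads divided by a scaling factor for each library, and depth was 21686140 to 30951138 reads per library, counted once per gene on its most abundant transcript. The targeted gene, Ythdf1, was not lower in the libraries labelled KO: it stood at 1088 and 775.4 in WT 1 and WT 2 and at 1752 and 1737 in KO 1 and KO 2. Both KO libraries lay above both WT libraries, as for 14.3% of all genes tested, with a ratio of 1.87 (log2 difference 0.925 ± 0.278 SE, 95% interval 0.25 to 1.6). It did not pass limma-trend, the main test (adjusted p = 0.759). The authors' deposited table (q = 0.0145) and DESeq2, an alternative test (adjusted p = 0.0113), called it higher. The genotype names below are therefore those of the labels. Among colonocyte markers, Epcam stood at 29956 to 33790, Car4 at 9705 to 12343 and Aqp8 at 5017 to 6071 across the 4 libraries, and none of the 12 was at 0 in a whole group. Car1, a carbonic anhydrase of surface colonocytes, had values of 102727 and 116128 in WT and of 73552 and 42374 in KO. Both KO libraries lay below both WT libraries, a ratio of 0.53 (log2 difference −0.97 ± 0.24 SE, 95% interval −1.56 to −0.38), and it did not pass the test described below (limma-trend adjusted p = 0.759). Of the 12 colonocyte markers, 3 had both KO libraries lower and 2 had both higher, against 21.4% and 14.3% of all genes tested. The 3 lower ones were Car1 and, named after their values were seen, Krt20 (ratio 0.912) and Cdx2 (ratio 0.779). The 2 higher ones were Epcam, at 30387 and 29956 in WT and 31627 and 33790 in KO (ratio 1.08), and Car4. Car4 read 9792 and 9705 against 10222 and 12343 (ratio 1.16). DESeq2 called 1 of the 12, beside 6.22% of all genes tested. The part of these markers in the results below was not tested. The summed colonocyte markers came to 428462 and 476610 in WT and to 412710 and 433438 in KO. Markers of stroma, muscle and endothelium summed to 1693 and 3810 in WT and to 1813 and 1285 in KO, with Col1a1 at 237.8 and 710.8 against 278.2 and 263.9. Of 11 tested, 4 had both KO libraries lower and none had both higher, against 21.4% and 14.3% of all genes tested. The authors' deposited table and DESeq2 each called 1 of the 11, beside 4.96% and 6.22% of all genes tested. Pdgfra, a fibroblast marker named after its values were seen, read 276.2 and 349.3 in WT and 17.45 and 78.58 in KO (ratio 0.154, limma-trend adjusted p = 0.759). In the summed leukocyte markers, 13 of 14 of which were listed, WT came to 3041 and 2400 and KO to 2207 and 943.8. Of the 13, 4 had both KO libraries lower and none had both higher, against 21.4% and 14.3% of all genes tested. DESeq2 called 1 of the 13, beside 6.22%. Lyz2, a myeloid marker, was listed at 0 in both KO libraries and at 47.34 and 73.7 in WT, and was the only marker of the lists at 0 in a whole group. Crypt base and cycling markers summed to 11535 and 13930 in WT against 14513 and 16951 in KO, with no overlap. In these bulk samples, fewer cells of a type and less RNA per cell cannot be told apart.

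None of the 6 genes passed the test, and the groups overlapped for 5 of them. The test was limma-trend on log2(value + 1) over all 23116 genes that passed the filter, with calls at a Benjamini-Hochberg adjusted p under 0.05, and it called 0% of those genes. At an unadjusted p under 0.05 it marked 1 of the 6, Oxct1, against a background of 5.44% (1257 genes). Both KO libraries lay above both WT libraries for 1 of the 6, again Oxct1, against 14.3% of all genes tested, and below them for none, against 21.4%. A share of 16.7% of 6 genes is near that background. With 2 libraries against 2, an exact two-sided permutation test of a single gene cannot go below p = 0.333. The median log2 difference of the 6 genes, KO minus WT, was 0.215, beside −0.0871 for all genes tested and 0.0675 for the 7431 genes whose mean reached 500.

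**Figure D1:**
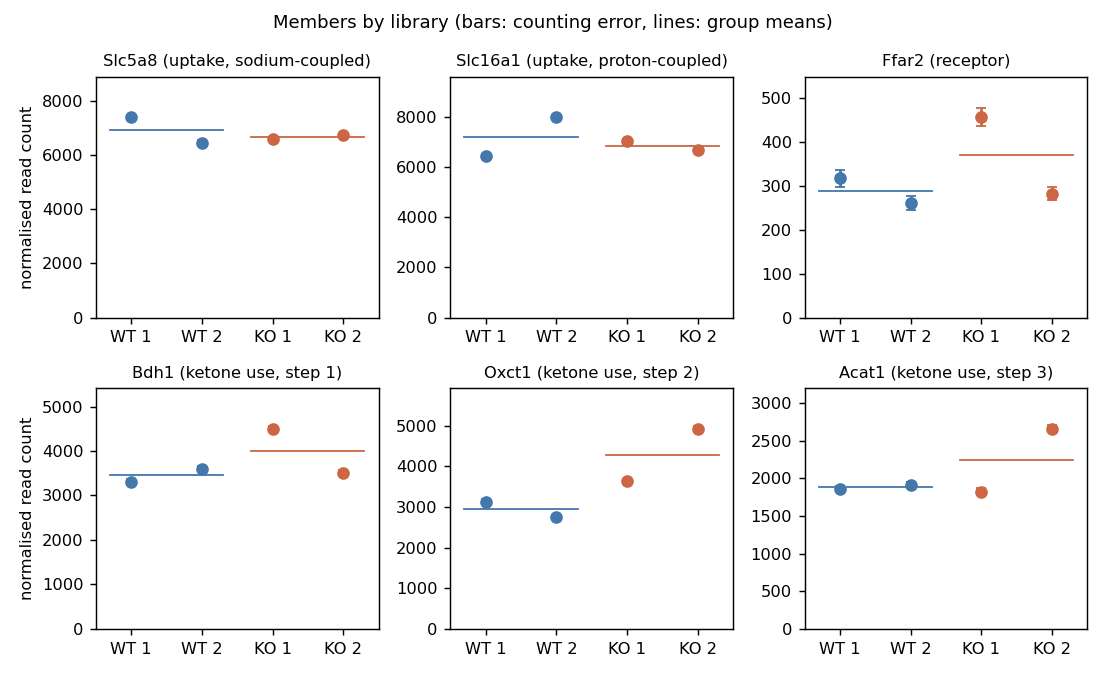
Normalised read count of each gene (vertical axis, from 0) in the 4 libraries (horizontal axis); blue points are WT, orange points are labelled Ythdf1 KO, bars are the counting error of the reads and lines are group means. Only Oxct1 has both KO libraries (3633 and 4926) above both WT libraries (3128 and 2745), and the gaps between libraries of a group are mostly larger than the counting error.

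For both transporters, the group means differed by less than the gap between the WT libraries. Slc5a8 (gene ID 216225, mm10 chr10:88885992-88929515, plus strand) had normalised read counts of 7390 and 6454 in WT 1 and WT 2, and of 6595 and 6749 in KO 1 and KO 2. Both KO libraries lay between the WT libraries. Group means of 6922 ± 661 in WT and 6672 ± 109 in KO (SD, n = 2 each) gave a ratio of 0.964. The log2 difference was −0.05 ± 0.15 (SE; limma-trend adjusted p = 0.989), with a 95% interval from −0.41 to 0.31.

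Slc16a1 (gene ID 20501, chr3:104638664-104658462, plus strand) read 6420 and 7981 in WT and 7036 and 6658 in KO. Here too the KO libraries lay between the WT libraries. Its means of 7201 ± 1104 and 6847 ± 267 (SD, n = 2 each) gave a ratio of 0.951, and the log2 difference was −0.06 ± 0.17 (SE; limma-trend adjusted p = 0.977, 95% interval −0.47 to 0.34). These intervals, taken before adjustment, span the differences compatible with the values, so changes within them are not excluded for either transporter. They are no limit of detection. The adjusted test called 0% of all genes tested, so larger changes could also have gone uncalled. The ratio of Slc5a8 to Slc16a1 values within a library was 1.15 and 0.809 in WT and 0.937 and 1.01 in KO. It shows that the WT libraries differed in the order of the 2 transporters' values: WT 1 had the highest Slc5a8 and the lowest Slc16a1 value of the 4 libraries. No transcript lengths were given, so this ratio is compared across libraries only and gives no order of abundance between genes.

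Of the 3 enzymes that turn ketone bodies into acetyl-CoA, each had a higher mean in KO, none passed the test, and for Bdh1 and Acat1 a single KO library carried the difference. Bdh1 (gene ID 71911, variant 2, chr16:31428753-31458901, plus strand) had values of 3310 and 3601 in WT and 4505 and 3509 in KO. KO 1 was the highest, while KO 2 lay between the WT libraries. The ratio of means was 1.16 (3456 ± 206 and 4007 ± 705, SD, n = 2 each), with a log2 difference of 0.20 ± 0.20 (SE; limma-trend adjusted p = 0.842, 95% interval −0.28 to 0.69), and of 0.023 without KO 1.

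Bdh1 variant 1, which begins at the upstream start printed above, read 2801 and 2996 in WT and 3744 and 2655 in KO, a ratio of 1.1. It kept the order of KO 1 first, but its KO 2 value was the lowest of the 4. Variant 1 stood at 0.846, 0.832 and 0.831 of variant 2 in WT 1, WT 2 and KO 1, and at 0.757 in KO 2. The 2 variants overlap and end at the same base, and reads in shared exons count for both, so these are not separate measurements. Gm15743, listed on the opposite strand and overlapping Bdh1, had values of 200.6 and 334.2 in WT and of 173.5 and 492.2 in KO. Whether the counting used strand was not given in the sources used here, so reads of such overlapping genes cannot be told apart.

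Oxct1 (gene ID 67041, chr15:4026428-4155344, plus strand), the step that commits acetoacetate to use, had values of 3128 and 2745 in WT and 3633 and 4926 in KO. Both KO libraries were above both WT libraries, and KO 2 was the highest. From means of 2936 ± 271 and 4279 ± 914 (SD, n = 2 each) the ratio was 1.46. The log2 difference was 0.53 ± 0.22 (SE; limma-trend adjusted p = 0.759), with a 95% interval from 0.0033 to 1.06. The authors' deposited table listed it with a log2 fold change of 0.544 and a q of 0.102, so it was not called there either. DESeq2 on the recovered reads gave an adjusted p of 0.0721. Over the 14 alternative settings the log2 difference lay between 0.31 and 0.75, and none of them called it. The lower end was the value without KO 2. BC037032, listed on the opposite strand and overlapping Oxct1, had 311.1 and 137.3 in WT against 52.35 and 293.6 in KO, an order unlike that of Oxct1. The summed crypt base and cycling markers were also higher in both KO libraries (ratio 1.24). Among them, the stem cell marker Lgr5 read 279.5 and 232.2 against 328.7 and 287.9, Ascl2 read 278.4 and 121.2 against 46.54 and 276.3, and Olfm4 had 175.8 in WT 1 and at most 3.878 elsewhere. Most of the sum was Mki67, a marker of cycling cells named after its values were seen, at 6489 and 8244 against 9025 and 11002. Other cycling markers, also named after their values were seen, overlapped. Top2a read 1125 and 2304 against 2316 and 2233, and Pcna 869 and 839 against 852.2 and 474.8. Of the 7 crypt base and cycling markers, 2 had both KO libraries higher and none had both lower, against 14.3% and 21.4% of all genes tested. The part of these markers in the Oxct1 value was not tested.

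Acat1 (gene ID 110446, chr9:53580522-53610350, minus strand), the mitochondrial thiolase, had values of 1859 and 1911 in WT and 1825 and 2663 in KO. WT 1, WT 2 and KO 1 lay close together and KO 2 stood above them. The ratio of means was 1.19 (1885 ± 37.1 and 2244 ± 593, SD, n = 2 each), with a log2 difference of 0.23 ± 0.25 (SE; limma-trend adjusted p = 0.864, 95% interval −0.39 to 0.84). Without KO 2 the difference was −0.047, and without KO 1 it was 0.50.

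The enzymes of this chain did not keep the same order of libraries. Oxct1 stood at 1.68 and 1.44 times the Acat1 value in WT and at 1.99 and 1.85 times in KO. This ratio did not overlap between the groups and was 1.23 times as large in KO. Oxct1 alone did not overlap either, and how often such ratios of other gene pairs overlap was not tested. Against Bdh1, Oxct1 stood at 0.945 and 0.762 in WT and 0.806 and 1.4 in KO, which overlapped. KO 1 was high in Bdh1, and KO 2 was high in Oxct1 and Acat1. Counting error was small beside these gaps: the KO libraries differed by 11.7 times the counting error of their gap for Bdh1, 14.8 times for Oxct1 and 13.3 times for Acat1. The WT libraries differed by 3.39, 4.82 and 0.828 times that error for the same genes. On the log2 scale the KO gaps were 0.361, 0.439 and 0.546, against a median of 0.318 between the KO libraries over the same 7431 well-counted genes as above. The corresponding WT gaps were 0.121, 0.188 and 0.0402, against a median of 0.276.

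Ffar2 (gene ID 233079, minus strand) gave opposite directions for different transcripts, and passed the test neither on variant 1 nor on the sum of its transcripts. Variant 1 (chr7:30818357-30823775), which stands for the gene by the rule of the highest mean, had values of 316.7 and 260.5 in WT and 455.7 and 282.1 in KO. KO 1 was the highest, and KO 2 lay between the WT libraries. Means of 288.6 ± 39.8 and 368.9 ± 123 (SD, n = 2 each) gave a ratio of 1.28. The log2 difference was 0.32 ± 0.50 (SE; limma-trend adjusted p = 0.912, 95% interval −0.90 to 1.53), the widest interval of the 6 genes, on 258 to 470 reads per library.

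All 9 other listed Ffar2 transcripts had a lower mean in KO, with ratios from 0.588 to 0.864. Their values ran from 276.2 to 312.2 in WT 1, from 160.5 to 260.5 in WT 2, from 86.28 to 136.7 in KO 1 and from 158 to 282.1 in KO 2. KO 1 was thus the lowest library for these transcripts and the highest for variant 1. In KO 1, variant 1 exceeded the highest of the others by 329 reads, a ratio of 3.33, while in the other libraries the excess was 0 to 4 reads. Summed over all 10 transcripts, which counts shared reads again for each, the log2 difference was −0.45. Without KO 1, the difference of variant 1 was −0.026. Variant 1 is the transcript with the upstream start printed above, but it is not the only one that starts there. Variant X5, whose start at chr7:30823707 lies close by, read 312.2 and 260.5 in WT and 86.28 and 282.1 in KO (ratio 0.643). Transcripts from the upstream region thus went in both directions, and the origin of the KO 1 excess was not tested. Gm32236, listed on the opposite strand and overlapping Ffar2, had values of 96.93 and 48.46 in WT and of 0 and 38.05 in KO, so KO 1 had none of its reads.

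**Figure D2:**
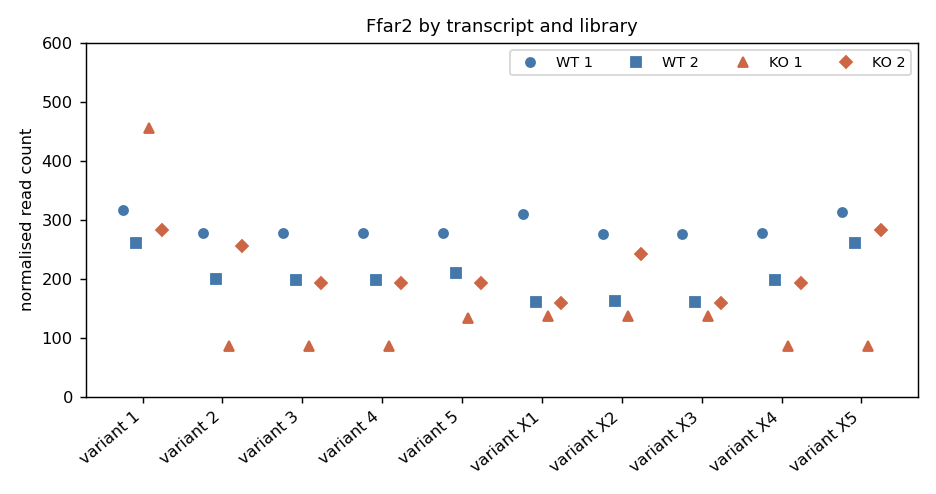
Normalised read count (vertical axis, from 0) of the 10 listed Ffar2 transcripts (horizontal axis, RefSeq variant names) in the 4 libraries; blue symbols are WT and orange symbols are labelled Ythdf1 KO. KO 1 (triangles) stands at 455.7 for variant 1 and between 86.28 and 136.7 for the other 9, while the other libraries show no such break.

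Ffar2 is also expressed by enteroendocrine cells and leukocytes, so their markers are given beside it. The summed enteroendocrine markers came to 6545 and 4863 in WT and 6507 and 3451 in KO, and those of leukocytes were lower in KO, as given above. Among the defining markers of enteroendocrine cells, Gcg stood at 99.19 and 346.3 in WT against 120.2 and 215.1 in KO, Pyy at 209.6 and 345.3 against 178.4 and 364.8, and Chga at 2056 and 1197 against 1921 and 642.7. Of the 10 listed, 1 had both KO libraries higher and none had both lower, against 14.3% and 21.4% of all genes tested. That gene was Insl5, named after its values were seen, at 16.91 and 10.1 in WT and 48.47 and 167.9 in KO. The log2 difference was above 0 for 4 of the 10 and below 0 for 6. The leukocyte marker Ptprc stood at 666.1 and 280.7 in WT and 253 and 118.3 in KO. Gcg, Pyy, Chga, Insl5 and Ptprc were above 0 in every library. Cd3e, a T cell marker, stood at 200.6 and 72.69 against 90.16 and 23.16, and Cd3g at 0 and 54.52 against 29.08 and 34.74. Their part in the Ffar2 values was not tested.

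The wider pathway was followed in 8 lists with 68 entries, the 6 genes included, of which 67 were listed and tested (Acsm4 is not analysed here). The test called none of the 67, and 2 of them, Oxct1 and Echs1, had an unadjusted p under 0.05. Both KO libraries were above both WT libraries for 6 (8.96%) and below them for 10 (14.9%). The background was 14.3% and 21.4% over all genes tested, and 22.7% and 12.8% over the genes whose mean reached 500, so whether the share of lower genes is above or below the background depends on which genes are counted. The median log2 difference was −0.0444. The authors' deposited table called 1 of the 67 at q under 0.05, beside 4.96% of all genes tested, and DESeq2 on the recovered reads called 1, beside 6.22%. Both calls were Echs1. The counts given below for single lists, each of few genes, are to be read beside these same shares.

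In ketone body use, 3 of 8 genes had both KO libraries higher and none had both lower, with a median log2 difference of 0.219. Over all genes tested the shares were 14.3% and 21.4%, and over the genes whose mean reached 500 they were 22.7% and 12.8%. Besides Oxct1 these were Acat2, the cytosolic thiolase, and Bdh2. Acat2 read 313.3 and 472.5 in WT and 553.6 and 952.9 in KO, a ratio of 1.92 (log2 difference 0.92 ± 0.45 SE, limma-trend adjusted p = 0.759), and 0.52 on the log2 scale without KO 2. Bdh2, named after its values were seen, read 28.18 and 19.18 against 37.81 and 101.7, on 19 to 123 reads per library. Aacs, which activates acetoacetate in the cytosol for lipid synthesis, had the highest mean read count of the list, at 3289 and 6050 in WT and 2939 and 4251 in KO, with overlap.

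**Figure D3:**
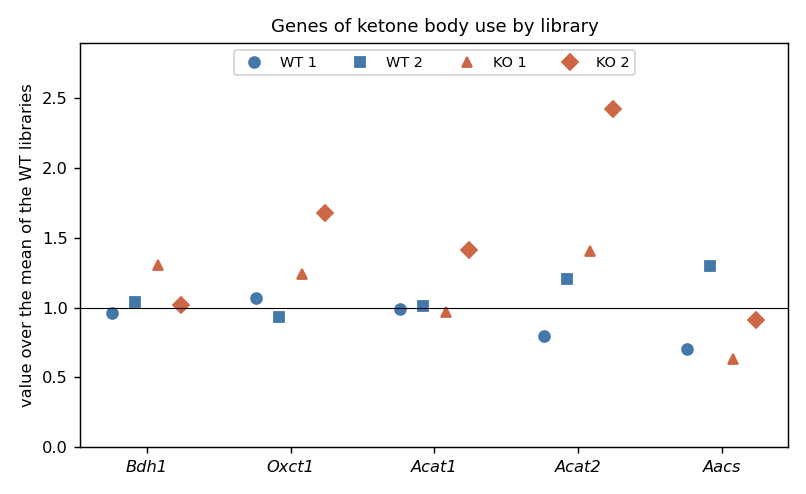
Value of each gene divided by the mean of its WT libraries (vertical axis, from 0; the line marks 1) for genes of ketone body use: Bdh1, Oxct1 and Acat1 of the mitochondria, and Acat2 and Aacs of the cytosol (horizontal axis); blue symbols are WT and orange symbols are labelled Ythdf1 KO. KO 2 (diamonds) is highest for Oxct1 (4926 before division), Acat1 (2663) and Acat2 (952.9), and KO 1 (triangles) is highest for Bdh1 (4505).

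Among 11 genes of monocarboxylate transport, none had both KO libraries higher and 2 had both lower, against 14.3% and 21.4% of all genes tested. These were Slc16a7 (MCT2), at 358.4 and 410.9 in WT and 259.8 and 48.8 in KO (ratio 0.401, limma-trend adjusted p = 0.759), and Abcg2, an efflux pump, at 1380 and 1504 against 1337 and 865.2 (ratio 0.764, adjusted p = 0.815). Without KO 2 the log2 difference went from −1.76 to −0.56 for Slc16a7 and from −0.42 to −0.11 for Abcg2, and without KO 1 it was −2.95 and −0.73. Slc26a3, the chloride and bicarbonate exchanger of the colon surface and the list's most abundant entry by read count, stood at 18713 and 15165 against 13732 and 23838, with overlap. Bsg, the chaperone that carries Slc16a1 to the membrane, named after its values were seen, had a ratio of 0.994 (10798 and 12911 against 12861 and 10698).

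The other receptors of short-chain fatty acids and ketone bodies had low counts that varied widely within groups. Ffar3, a second short-chain fatty acid receptor, read 157.8 and 16.15 in WT and 40.72 and 49.63 in KO. Hcar2, the receptor for beta-hydroxybutyrate and niacin, read 50.72 and 1.01 in WT and was listed at 0 in both KO libraries. WT 1 was the highest library for both. These 2 were named after their values were seen, and Hcar2 was the 1 of 6 receptors with both KO libraries lower.

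In butyrate activation and oxidation, the values went in different directions from gene to gene. The log2 difference was above 0 for 3 of 7 synthetases and for 5 of 10 beta-oxidation genes, and below 0 for the rest. Acsm1, named after its values were seen, had both KO libraries lower, at 100.3 and 72.69 in WT and 21.33 and 9.926 in KO. Acsm3, an acyl-CoA synthetase that accepts butyrate, read 2138 and 1952 in WT and 2286 and 2840 in KO, a ratio of 1.25 (log2 difference 0.32, limma-trend adjusted p = 0.81), and the difference was 0.16 without KO 2. Acss2, which makes acetyl-CoA from acetate in cytosol and nucleus, read 1772 and 2503 against 1968 and 3818, with overlap. Echs1, the hydratase that acts on crotonyl-CoA in the oxidation of butyrate, read 1707 and 1345 in WT and 3736 and 2220 in KO, a ratio of 1.95. Its log2 difference was 0.93 ± 0.31 (SE; limma-trend adjusted p = 0.759), with a 95% interval from 0.18 to 1.68. Without KO 1 the difference was 0.55. The authors' deposited table listed Echs1 at a log2 fold change of 0.965 (q = 0.0238), and DESeq2 on the recovered reads gave an adjusted p of 0.021, so its call depends on the test. It was the only one of the 10 genes of short-chain beta-oxidation with both KO libraries higher, and none had both lower. Hadha, a subunit of the trifunctional protein, read 4707 and 5553 against 5814 and 4759, with overlap.

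For the 12 genes of pyruvate entry, which feeds the same acetyl-CoA pool from glucose and lactate, none had both KO libraries higher and 1 had both lower. That gene was Pdhx, a structural subunit of pyruvate dehydrogenase, at 415.9 and 566.4 in WT and 386.8 and 381.3 in KO (ratio 0.782, log2 difference −0.34), and the difference was −0.56 without WT 1 and −0.12 without WT 2. Pdha1, its catalytic subunit, stood at 4466 and 3616 against 3632 and 4684. The pyruvate entry genes thus had a median log2 difference of 0.0453.

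Among the 9 regulators, 3 had both KO libraries lower and 1 had both higher, against 21.4% and 14.3% of all genes tested. Ppara, a nuclear receptor that drives fatty acid oxidation in liver, read 1836 and 1871 in WT and 1500 and 891.7 in KO (ratio 0.645, limma-trend adjusted p = 0.759). Pparg, a nuclear receptor abundant in colon epithelium, read 2350 and 2439 against 1897 and 1433 (ratio 0.695, limma-trend adjusted p = 0.759). Sirt3, a mitochondrial deacetylase, read 243.5 and 172.6 against 401.4 and 320.1 (ratio 1.73, adjusted p = 0.8). Ppargc1a, a coactivator of mitochondrial genes, stood at 2107 and 1906 against 2778 and 2004, with overlap. For Ppara and Pparg, KO 2 was the lowest library, and without it their log2 differences went from −0.68 to −0.31 and from −0.54 to −0.34.

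**Figure D4:**
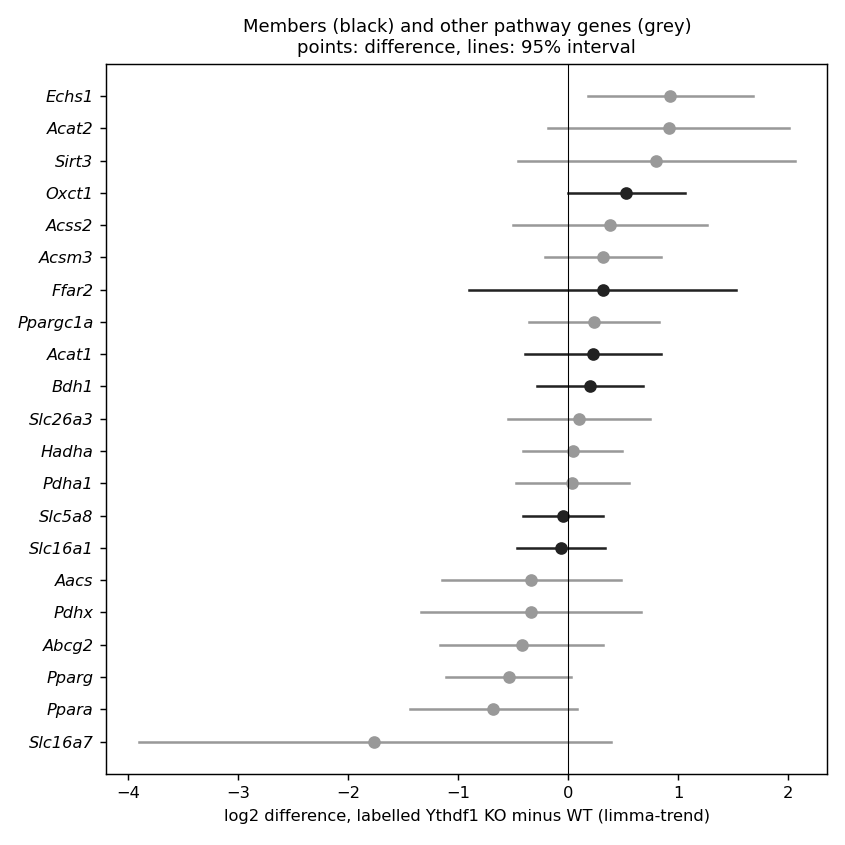
Log2 difference, labelled Ythdf1 KO minus WT, on the log2(value + 1) scale (horizontal axis) with its 95% interval from limma-trend, for the 6 genes (black) and 15 other genes of the pathway lists (grey), ordered by size. The intervals of Oxct1 (0.0033 to 1.06) and Echs1 (0.18 to 1.68) lie above 0 before adjustment, and all others include 0.

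The genes whose pattern over the 4 libraries lay nearest to each of the 6 were sought among 7426 genes whose mean reached 500, by the Euclidean distance of centred log2 values. Oxct1 was nearest to Itih5 (distance 0.032), at 7180 and 6368 in WT and 8183 and 11364 in KO, and to Gps2 (0.04). Acat1 lay nearest to Bcor (0.024) and Aqr (0.029), and Bdh1 to H2-K1 (0.035). The transporters had Cdk6 (0.04) near Slc5a8, and Vmp1 and Trim11 (0.031 each) near Slc16a1. Ffar2 variant 1 was farther from its nearest genes, Particl (0.07) and Acnat1 (0.074). With 4 libraries and this many genes such distances describe likeness of these values only.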

How the data were processed

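RNA was measured in 4 input libraries of mouse colon epithelium, 2 labelled WT and 2 labelled Ythdf1 KO. The submitters' processing notes name the build mm10 and, with no role, deepTools 3.3.0, HOMER 4.10, MACS2 2.1.0, SAMtools 1.3.1, Bowtie2 2.2.5 and CASAVA 1.8. Which program counted reads was not given in the sources used here. The deposited expression signal per transcript is a read count divided by a size factor: in each library 100% of values were whole multiples of 1 step, within 0.001, and 1 read was worth 1.127, 1.01, 0.9695 and 0.8272 in WT 1, WT 2, KO 1 and KO 2. Transcripts sharing exons each count the shared reads. The lowest listed mean was 11.6. Per the file headers, each transcript also carries a p-value, a q-value and the log2 fold change of the authors' own comparison.

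The most abundant transcript stood for each gene. A gene was kept if 2 or more libraries had a value of at least 1. The robust limma-trend fit (limma 3.58.1, R 4.3.3) used log2(value + 1) and had been tested on simulated data. Adding 1 shrinks the log2 differences of low genes. These are differences between means of logs, so they can be larger or smaller than the ratio of means implies where libraries of a group differ widely. edgeR 4.0.16 and DESeq2 1.42.0 on recovered reads were alternatives, as were the authors' comparison, summed transcripts, other filters, scalings and pseudocounts, and leaving out each library. The genes, lists and tests were chosen with earlier results of these data known. Named were the 6 genes, the target, and from each pathway list the gene with the highest mean and up to 3 with the largest difference among those with a mean of at least 100 and groups that do not overlap. Defining markers (first 3 of a list), markers at 0 in a whole group and the 2 nearest genes of each of the 6 were named too. Genes outside this rule are said to be so, and some genes that it names are not reported here.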

Additional observations from a re-analysis of the deposited data

How the results depend on the processing

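None of the 6 genes was called under any of the 14 alternatives, under which the log2 difference of Oxct1 (0.31 to 0.75) and of Bdh1 (0.023 to 0.38) kept its sign. Gaps between the 2 libraries of a group ran from 0.828 times their counting error (Acat1, WT) to 14.8 times (Oxct1, KO), and most exceeded it. How much depth and spread each limited the calls was not tested. Over all genes, against 0 calls, DESeq2 on recovered reads made 1438, the authors' comparison 1146 and limma without a trend 524, and leaving out a library gave 0 to 36, the 36 without KO 1. At an unadjusted p under 0.05, limma-trend marked 1257 genes, edgeR 1258 and DESeq2 3919. Of the pathway genes, DESeq2 and the authors' comparison each called 1 (Echs1), and leaving out a library gave 0 to 1 (the 1 without KO 1). Signs turned for Ffar2 with all transcripts summed (−0.45), and for Hadha (−0.055) and Pdha1 (−0.054) under quantile normalisation. Signs also turned when a library was left out, with log2 differences from −0.15 to 0.048 for Slc5a8, −0.22 to 0.092 for Slc16a1, −0.047 to 0.50 for Acat1, −0.026 to 0.66 for Ffar2, −0.29 to 0.50 for Slc26a3, −0.098 to 0.86 for Acss2, −0.10 to 0.19 for Hadha, −0.78 to 0.10 for Aacs and −0.15 to 0.22 for Pdha1. The cause was not tested. The deviations of same-numbered libraries had a correlation of 0.0225 over the genes whose mean reached 500. That shows no strong shared effect of the replicate number, but it cannot tell whether the samples were paired. With the replicate block no gene was called (Oxct1 0.53, limma-trend adjusted p 0.664).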
